A study of Mus musculus with 45 samples.

Results

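LM3 and LM1 are sister lines of mouse mammary tumour cells, both recovered from lungs after Myc310 cells had been injected into the mammary fat pad, and their control-medium cultures were compared, 3 per line, 6 of the 45 libraries of the series. The model was fitted over 30 control-medium libraries of 10 lines, without the 3 control cultures of MYAZ12_3i_NDI1. Myc310 comes from a tumour of an MMTV-cMYC mouse of the FVB/NJ strain that had multiple tumours. The MMTV promoter drives the Myc transgene in mammary epithelium, and LM3, LM1 and the other lines from lung descend from Myc310 and so share that transgene. Cells were seeded at 250000 per well, and after 24 h the labels give a 6 h period in control medium for both lines. The study's methods name LM1, but not LM3, among the lines whose medium was changed, so an effect of such a change cannot be told apart from the line. Each group is 1 line from dissociated lung tissue, and its 3 cultures are called technical replicates by the submitters. The p-values below therefore measure the spread between cultures of a line and not that between independent isolates. All genes entered the comparison: 28454 were listed, 13795 passed a filter on low counts, and no measured value was used to choose the samples.

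Metastatic lines of a common parent are used to ask what cells that have colonised an organ share and what differs from one isolate to the next. Isolates may differ in expression programs that cells switch between, such as epithelial and mesenchymal states, and in chromosome number, which moves the expression of most genes on a chromosome together. The comparison of LM3 with LM1 addresses what differs: how far lines of the same parent and the same organ lie apart.

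The 6 libraries held 19521444 to 25539504 counts on genes, and no library stood apart from its line. The mitochondrially encoded share of counts was 1.31 to 1.63% in LM3 and 1.95 to 2.20% in LM1, and 12393 to 12517 genes had at least 10 counts in LM3 against 11886 to 12066 in LM1. Neither pair of ranges overlapped (exact permutation test over 3 against 3 libraries, two-sided, p = 0.1, the smallest p this design allows). Both lines carry the label of mammary tumour cells, yet the epithelial markers Cdh1 and Epcam had at most 1 count in any of the 6 libraries. Keratins 8 and 18, encoded by Krt8 and Krt18, were abundant. Vim, the mesenchymal filament gene, was at 3482, 3608 and 3523 CPM in LM3 and 3703, 3693 and 3822 CPM in LM1 (log2 fold change -0.08 ± 0.023, adjusted p = 0.00395, or adjusted p = 0.0530 without LM1 replicate 3). Both lines thus had keratin and vimentin transcripts with the adhesion markers at or near 0. Marker lists of other cell types are given with the groups they touch.

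LM3 and LM1 differed over much of the transcriptome. Values are CPM, counts scaled to the TMM-adjusted size of the library, fold changes are LM3 against LM1 on the log2 scale, given ± their standard error, 3 values in a row are the cultures 1 to 3 of a line, and a gene was called at a Benjamini-Hochberg adjusted p under 0.05 in edgeR's quasi-likelihood test over all genes tested. Of 13795 genes, 6627 were called (48.0%). Of these, 3551 were higher in LM3 (25.7%) and 3076 were lower (22.3%). Changes over 2-fold were mostly in one direction: 999 genes were called at over 2-fold higher (7.24%) and 189 at over 2-fold lower (1.37%). Most of the genes past 2-fold had low counts. Among the 9175 genes whose mean log2 CPM was 3 or more, 171 were called at over 2-fold higher and 25 at over 2-fold lower, whereas 2428 were called higher and 2722 lower at any size. Past 8-fold there were 312 genes called higher and 32 called lower. The cultures of the 2 lines did not overlap for 7556 of the 13795 genes, and for 6342 of the 6627 called. Lack of overlap, given for single genes below, therefore adds little to a call.

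The 12 largest increases among well-expressed protein-coding genes were all over 8-fold. Alpl, tissue-nonspecific alkaline phosphatase (chr4:137741733-137796384, minus strand), was at 74.3, 78.5 and 73.8 CPM in LM3 and 6.38, 4.69 and 4.82 CPM in LM1 (log2 fold change 3.84 ± 0.071, adjusted p = 3.24e-30). Col4a5, a basement membrane collagen chain encoded on the X chromosome, was at 68.8, 66.1 and 65.2 CPM in LM3 and 3.86, 5.86 and 6.18 CPM in LM1 (log2 fold change 3.64 ± 0.074, adjusted p = 4.14e-29). No LM3 culture came within 8-fold of an LM1 culture for either gene. Syk, a cytoplasmic tyrosine kinase best known from blood cells, was at 34.8, 35.6 and 35.1 CPM in LM3 and 2.83, 2.57 and 1.64 CPM in LM1 (log2 fold change 3.91 ± 0.12, adjusted p = 3.66e-24). Blnk, the adaptor protein that Syk phosphorylates in B cells, was at 27.6, 29.6 and 26.9 CPM in LM3 and 3.24, 2.12 and 2.15 CPM in LM1 (log2 fold change 3.50 ± 0.14, adjusted p = 1.12e-20). Ripk3, the kinase of necroptosis, was at 31.0, 33.5 and 37.7 CPM in LM3 and 2.32, 2.07 and 2.43 CPM in LM1 (log2 fold change 3.90 ± 0.10, adjusted p = 5.15e-26). No culture of one line overlapped with the other line for these 3 genes either. Also among them were Bmp7, Fkbp10 (a collagen-folding isomerase, overlapped by Nt5c3b on the other strand), Adcy3 (an adenylate cyclase, overlapped by Cenpo), Car2 (a carbonic anhydrase), Tex101 (a testis surface protein) and Krt19, with log2 fold changes from 3.18 to 3.94.

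The 12 largest decreases among well-expressed protein-coding genes were led by 1 gene. Eng (chr2:32646595-32682669, plus strand) encodes endoglin, a co-receptor for TGF-beta family ligands that marks endothelial cells. It was at 10.9, 10.8 and 10.6 CPM in LM3 and 173, 177 and 173 CPM in LM1 (log2 fold change -4.02 ± 0.061, adjusted p = 1.52e-32), 16.2-fold lower in LM3. The annotated gene Fpgs overlaps it on the other strand, and whether counting used strand is not given in the sources used here. Of the other endothelial markers, Pecam1, Kdr, Tek, Tie1 and Vwf had at most 4 counts in any of the 6 libraries, Egfl7 was not called (12.1 against 12.5 CPM, log2 fold change -0.03 ± 0.11, adjusted p = 0.852), and Cdh5 was called higher in LM3 (0.695 against 0.0515 CPM, at most 3 counts in each LM1 library, adjusted p = 5.29e-04). Sort1, the sorting receptor sortilin, was at 21.96, 23.3 and 22.6 CPM in LM3 and 87.3, 91.9 and 94.1 CPM in LM1 (log2 fold change -2.01 ± 0.068, adjusted p = 7.15e-23). Cd24a, a surface glycoprotein used to sort mammary cells, was at 68.0, 67.5 and 67.2 CPM in LM3 and 185, 179 and 185 CPM in LM1 (log2 fold change -1.44 ± 0.028, adjusted p = 1.30e-29). Both were lower in every LM3 culture. Pwwp3b, Ctla2a, Tmsb4x (thymosin beta 4), Tmlhe, Fam149a, Ncoa1 (a nuclear receptor coactivator), Mtcl1, Col8a1 and Samd9l completed the 12, with log2 fold changes from -2.12 to -1.25. Tmlhe lies on an unplaced scaffold, and Ctla2a has close relatives among which reads may be split. Genes named below are overlapped on the other strand too, among them Bmp6 (Txndc5), Wnt5b (Fbxl14), Il18 (Bco2), Oplah (Exosc4 and Smpd5), Gss (Acss2), Junb (Prdx2), B2m (Patl2), Hopx (Hopxos), Lamb3 (Hsd11b1 and G0s2), Erbb2 (Mien1) and Irf7 (Phrf1), with the overlapping gene in parentheses. Others, such as Psmb8 and Tap2 (both Gm20496), Notch1 (0610009E02Rik), Tcf7 (A630014C17Rik), Kank4 (Kank4os) and Mvd (Gm20388), are overlapped by less well characterised genes.

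**Figure D1:**
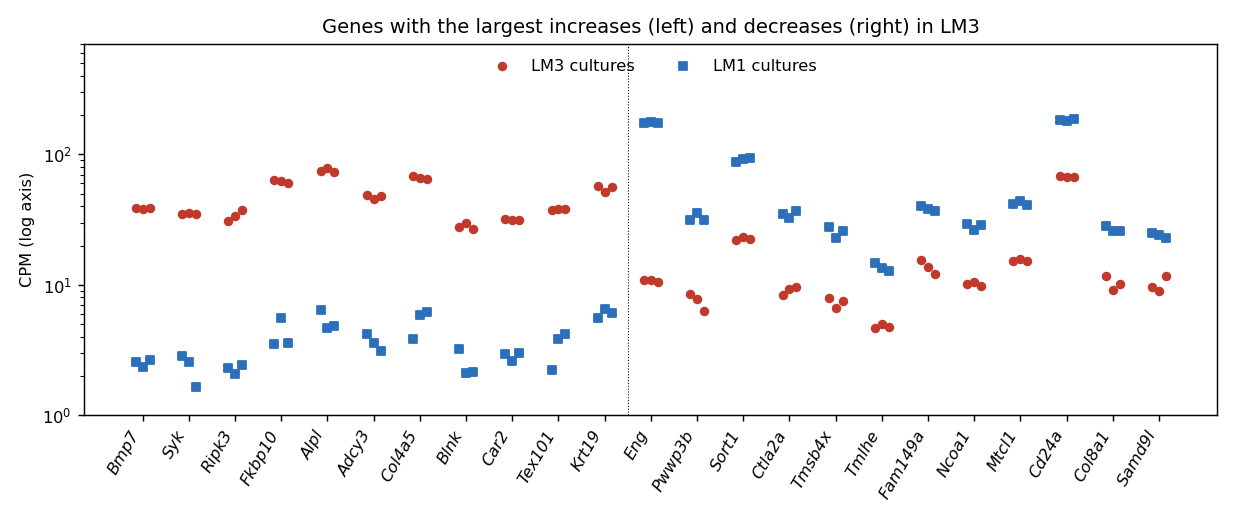
CPM on a log axis of well-expressed protein-coding genes with the largest increases (left) and decreases (right) in LM3, 1 point per culture (circles LM3, squares LM1). The genes on the left sit between 1.64 and 6.54 CPM in LM1, and Eng is the only one of the decreases plotted that is beyond 4.33-fold.

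Genes that were at the floor in one line, with at most 3 counts in each of its libraries, add to this asymmetry. There were 43 protein-coding genes at the floor in LM1 that reached 1 CPM in every LM3 culture, and 5 in the opposite direction. The most abundant of the former was 2510009E07Rik, at 10.3, 10.7 and 10.7 CPM in LM3, at least 73.5-fold higher than the LM1 floor. Emb, the adhesion molecule embigin, was at 6.25, 4.92 and 4.78 CPM (at least 37.1-fold higher) and Dppa2, a pluripotency-associated gene, at 5.41, 5.52 and 4.96 CPM (at least 36.9-fold higher). Nxf3, an RNA export factor of the testis, was at 5.62, 5.40 and 4.50 CPM (at least 36.1-fold higher). In LM1 the gene of the mechanosensitive channel Piezo2 was at 4.79, 3.88 and 4.12 CPM against the LM3 floor (at least 33.3-fold lower in LM3). Kank4 was at 1.18, 1.17 and 1.36 CPM (at least 9.68-fold lower) and Arhgap29, a GTPase activator, at 1.29, 1.71 and 1.497 CPM (at least 11.7-fold lower). The bounds take 3 counts per library as the floor. Pcdhgb4 was also at the floor in LM3, but shares exons with the other genes of its protocadherin cluster, among which counts may be split.

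The parent places these differences. LM3 differed from Myc310 in 6296 genes (45.6%) and LM1 from Myc310 in 4538 (32.9%), and both comparisons share the Myc310 libraries. For the 1188 genes past 2-fold between LM3 and LM1, the mean log2 CPM of Myc310 was nearer to LM3 for 474 and nearer to LM1 for 714. Some genes were near the parent in LM3 and low in LM1. Krt19 had 34.9 ± 0.435 CPM in Myc310, 54.9 ± 2.85 in LM3 and 6.04 ± 0.489 in LM1 (SD, n = 3), and Col4a5 had 45.1 ± 1.76, 66.7 ± 1.87 and 5.30 ± 1.26 CPM. Others were near the parent in LM1 and high in LM3. Lrp12, a lipoprotein receptor family member, had 4.23 ± 0.477 CPM in Myc310, 20.1 ± 0.452 in LM3 and 3.50 ± 0.274 in LM1. Fkbp10 had only 0.0133 CPM in the parent and was above that in both daughters.

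The other lines from lung fell on either side. Over the same 1188 genes LM2 was nearer to LM3 for 845 and nearer to LM1 for 343. LM1-LM, the line isolated from lung after injection of LM1, was nearer to LM1 for 1023. LM2-LM was nearer to LM1 for 667 and LM3-LM nearer to LM3 for 1022. The labels and methods call LM2-LM and LM3-LM replicates of LM1-LM and do not say that LM3-LM descends from LM3. These counts describe genes that were chosen for their difference between LM3 and LM1. The study's methods name Myc310, LM1 and LM1-LM for the medium change, but not LM2, LM3, LM2-LM or LM3-LM. For these lines, Myc310 included, an effect of such a change on nearness cannot be told apart from the line.

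**Figure D2:**
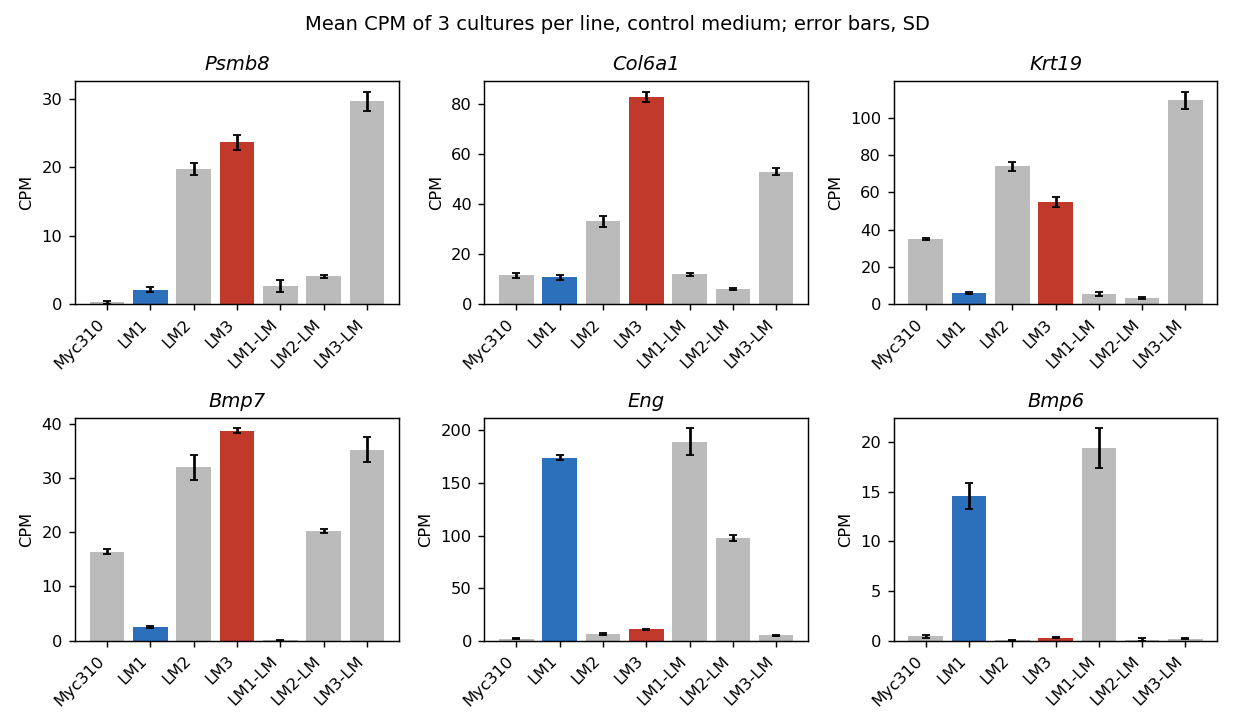
Mean CPM of 6 genes in Myc310 and the lines from lung, with SD over 3 cultures as error bars (LM1 blue, LM3 red, others grey). Psmb8, Col6a1, Krt19 and Bmp7 are higher in LM3 and LM3-LM than in LM1 and LM1-LM, and Eng and Bmp6 are lower.

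Cholesterol genes were higher in LM3 as a group. The transcription factor SREBP2, encoded by Srebf2, switches these genes on when membrane sterol is low. The list had 21 of 24 tested members called higher and 0 called lower in LM3, beside 25.7% and 22.3% of all genes, with a median log2 fold change of 0.35 against 0 over all genes tested. The members named here differed by less than 2-fold. Srebf2 itself was at 223, 222 and 218 CPM in LM3 and 146, 154 and 146 CPM in LM1 (log2 fold change 0.57 ± 0.032, adjusted p = 1.07e-16). Sqle, squalene epoxidase, was at 111, 106 and 114 CPM in LM3 and 67.0, 74.3 and 70.9 CPM in LM1 (log2 fold change 0.64 ± 0.040, adjusted p = 1.92e-15). Fdps, farnesyl diphosphate synthase, was at 77.0, 74.4 and 70.5 CPM in LM3 and 43.5, 51.2 and 41.2 CPM in LM1 (log2 fold change 0.71 ± 0.071, adjusted p = 2.93e-10). In each of these the 3 LM3 cultures lay above the 3 LM1 cultures. Mvd, mevalonate diphosphate decarboxylase, was at 10.9, 9.21 and 11.8 CPM in LM3 and 6.44, 6.13 and 6.08 CPM in LM1 (log2 fold change 0.77 ± 0.10, adjusted p = 1.02e-07). Ebp, Nsdhl and Pmvk were not called. Srebf2 and Sqle lie on chromosome 15 and Mvd on chromosome 8, whose genes as a whole were higher in LM3, and without the genes of chromosomes 6, 8 and 15 the list had 17 of 20 higher and 0 lower, beside 19.9% and 24.9% of all genes outside them. The same shares are the background for every other list: 25.7% and 22.3% for its full counts, 19.9% and 24.9% for those outside these chromosomes. Fatty acid and lipid droplet genes were mixed, with 14 of 29 tested members called higher and 5 called lower in LM3. Among them Lpl, lipoprotein lipase, was at 17.4, 16.07 and 13.9 CPM in LM3 and 3.50, 3.43 and 2.81 CPM in LM1 (log2 fold change 2.29 ± 0.11, adjusted p = 2.38e-18), and Fabp4, a fatty acid carrier, at 142, 139 and 146 CPM in LM3 and 55.8, 53.6 and 60.7 CPM in LM1 (log2 fold change 1.32 ± 0.046, adjusted p = 1.62e-22). Fasn and Acaca, the core enzymes of fatty acid synthesis, were at -0.062 ± 0.034 and -0.0097 ± 0.029 and were not called.

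Genes of antigen presentation by MHC class I were also called in one direction. Class I molecules present peptides that the immunoproteasome cuts and the TAP transporter moves into the endoplasmic reticulum, and NLRC5 is the transcriptional activator of the class I genes. The list had 16 of 21 tested members called higher and 0 called lower in LM3, beside 25.7% and 22.3% of all genes (median log2 fold change 0.41). Nlrc5 was at 7.05, 6.11 and 7.81 CPM in LM3 and 0.0515, 0.135 and 0.281 CPM in LM1 (log2 fold change 5.41 ± 0.34, adjusted p = 7.02e-15). Psmb8, an immunoproteasome subunit (chr17:34197721-34201454, plus strand), was at 24.2, 24.4 and 22.4 CPM in LM3 and 2.21, 1.67 and 2.39 CPM in LM1 (log2 fold change 3.50 ± 0.14, adjusted p = 1.59e-20). Psmb9, another subunit, was at 3.04, 4.05 and 3.63 CPM in LM3 and 0.618, 0.586 and 0.561 CPM in LM1 (log2 fold change 2.59 ± 0.28, adjusted p = 1.53e-09). All 3 were higher in every LM3 culture, and the parent was low too: Myc310 had 0.507 ± 0.191 CPM of Nlrc5 and 0.250 ± 0.192 CPM of Psmb8. Tap2, a subunit of the TAP transporter, was at 20.5, 22.4 and 19.7 CPM in LM3 and 6.28, 6.58 and 5.71 CPM in LM1 (log2 fold change 1.76 ± 0.094, adjusted p = 2.15e-17). The class I heavy chains differed less. H2-K1 was at 144, 141 and 138 CPM in LM3 and 87.1, 87.6 and 83.4 CPM in LM1 (log2 fold change 0.71 ± 0.031, adjusted p = 5.65e-20). H2-D1 was at 401, 401 and 402 CPM in LM3 and 257, 268 and 261 CPM in LM1 (log2 fold change 0.61 ± 0.025, adjusted p = 1.41e-20). B2m, their light chain, was at 161, 170.3 and 170.1 CPM in LM3 and 130.3, 130.3 and 126 CPM in LM1 (log2 fold change 0.37 ± 0.032, adjusted p = 3.98e-12). Heavy chain genes are near-identical in part, so counts may be split among H2-K1, H2-D1 and the H2-Q genes, and Psmb9 and Tap1 overlap on opposite strands. Nlrc5 lies on chromosome 8, and outside chromosomes 6, 8 and 15 the list had 12 of 17 higher and 0 lower, beside 19.9% and 24.9%.

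Interferon-stimulated genes had 14 of 32 tested members called higher and 1 called lower in LM3 (median 0.58, or 0.57 with genes at the floor set to their bounds). Ifit2 was at 29.5, 25.8 and 26.4 CPM in LM3 and 15.1, 15.6 and 15.3 CPM in LM1 (log2 fold change 0.83 ± 0.077, adjusted p = 3.92e-11) and Gbp7 at 5.36, 4.76 and 4.73 CPM in LM3 and 2.16, 2.66 and 1.404 CPM in LM1 (log2 fold change 1.25 ± 0.19, adjusted p = 1.10e-06). Some members were low in both lines: Isg15 (0.602 against 0.378 CPM, log2 fold change 0.64 ± 0.36, adjusted p = 0.148), Ifit1 (0.169 against 0.214 CPM, log2 fold change -0.37 ± 0.69, adjusted p = 0.698) and Irf7 (0.341 against 0.254 CPM, log2 fold change 0.41 ± 0.54, adjusted p = 0.568) were not called. Eif2ak2, the double-stranded RNA kinase, was lower (32.5 against 36.7 CPM, log2 fold change -0.18 ± 0.049, adjusted p = 0.00327).

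The promoters of both groups were read for the letters that their regulators are known to use. Windows from 250 bases before to 50 after the gene's start were taken from RefSeq on GRCm38.p6, the first where a gene has several, and 9600 protein-coding genes tested had one, of which 16 were in the sterol list and 18 in the MHC list. The letters CCAAT, bound by NF-Y, which acts with SREBP2 and with NLRC5, occurred on either strand in 15 of 16 sterol windows and 13 of 18 MHC windows, against 39.5% of all windows. A sterol regulatory element written as TCACNCCAC occurred in 1 of 16 sterol windows (1.02% of all), and the interferon-stimulated response element in 5 of 18 MHC windows and 15 of 24 interferon-stimulated windows (2.97% of all). A match is a description of letters and not a binding site. Apart from the filter on low counts, these shares depend on list membership and not on any difference between LM3 and LM1. Whether these regulators act on the difference was not tested. The 3 members of each list with the largest increase among those with a window are shown 5′ to 3′ on the gene's strand. CCAAT or its complement ATTGG is in capitals. They lie at chr8:122443373-122443672, minus strand (Mvd), chr8:64733529-64733828, minus strand (Msmo1), chr15:82147019-82147318, plus strand (Srebf2), chr17:34197945-34198244, plus strand (Psmb8), chr17:34187281-34187580, minus strand (Psmb9) and chr17:35438905-35439204, plus strand (H2-Q7). The RefSeq start used for Psmb8 lies inside the gene as GENCODE places it, so its window does not cover the upstream end given above.
Mvd: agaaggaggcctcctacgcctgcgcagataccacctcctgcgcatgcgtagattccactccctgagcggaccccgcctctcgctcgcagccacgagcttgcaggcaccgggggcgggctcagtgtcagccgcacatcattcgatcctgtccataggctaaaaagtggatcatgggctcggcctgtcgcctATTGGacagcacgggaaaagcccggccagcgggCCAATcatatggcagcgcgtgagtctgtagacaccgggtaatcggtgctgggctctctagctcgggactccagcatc
Msmo1: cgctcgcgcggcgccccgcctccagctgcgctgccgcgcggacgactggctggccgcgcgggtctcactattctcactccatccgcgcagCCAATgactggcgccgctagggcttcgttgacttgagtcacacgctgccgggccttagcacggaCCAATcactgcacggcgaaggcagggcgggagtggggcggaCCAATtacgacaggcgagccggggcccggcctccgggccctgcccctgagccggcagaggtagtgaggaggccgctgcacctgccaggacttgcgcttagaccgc
Srebf2: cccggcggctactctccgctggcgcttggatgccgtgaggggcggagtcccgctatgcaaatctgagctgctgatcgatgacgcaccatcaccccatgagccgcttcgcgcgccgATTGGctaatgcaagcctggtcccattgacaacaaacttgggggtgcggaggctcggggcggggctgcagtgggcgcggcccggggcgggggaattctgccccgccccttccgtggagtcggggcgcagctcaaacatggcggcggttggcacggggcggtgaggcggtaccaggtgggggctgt
Psmb8: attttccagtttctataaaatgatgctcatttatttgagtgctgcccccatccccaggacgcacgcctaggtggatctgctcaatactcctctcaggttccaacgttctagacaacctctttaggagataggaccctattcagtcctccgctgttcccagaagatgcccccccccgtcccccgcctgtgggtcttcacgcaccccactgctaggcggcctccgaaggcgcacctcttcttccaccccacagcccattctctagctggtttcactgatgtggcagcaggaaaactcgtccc
Psmb9: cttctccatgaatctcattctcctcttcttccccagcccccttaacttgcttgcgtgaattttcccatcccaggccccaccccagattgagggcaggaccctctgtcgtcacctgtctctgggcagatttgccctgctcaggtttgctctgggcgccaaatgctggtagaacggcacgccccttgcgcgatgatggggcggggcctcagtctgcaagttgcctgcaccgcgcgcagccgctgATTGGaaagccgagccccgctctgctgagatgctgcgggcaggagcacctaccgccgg
H2-Q7: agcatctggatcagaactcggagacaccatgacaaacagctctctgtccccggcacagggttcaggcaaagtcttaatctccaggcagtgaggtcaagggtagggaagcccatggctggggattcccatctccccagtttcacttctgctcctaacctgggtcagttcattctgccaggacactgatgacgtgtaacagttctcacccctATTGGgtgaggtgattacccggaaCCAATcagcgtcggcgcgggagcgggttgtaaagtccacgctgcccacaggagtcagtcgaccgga
Psmb8, with the largest fold change of the 6, holds no such letters in this window.

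Most tested genes of epithelial adhesion and identity were higher in LM3 than in LM1. Of the 28 listed members 16 were tested. Cdh1, Epcam, Cldn1, Cldn3, Cldn4 and Cldn7 had at most 2 counts in any of the 6 libraries. The junction gene Ocln was not called (2.30 against 2.31 CPM). The list had 11 of 16 tested members called higher and 0 called lower in LM3, beside 25.7% and 22.3% of all genes (median 1.18, or 1.22 with genes at the floor set to their bounds). Krt19, a keratin of simple epithelia, was at 56.9, 51.6 and 56.1 CPM in LM3 and 5.56, 6.54 and 6.04 CPM in LM1 (log2 fold change 3.18 ± 0.081, adjusted p = 1.95e-26). Dsp, desmoplakin of the desmosome, was at 174, 169 and 175 CPM in LM3 and 30.2, 33.3 and 33.2 CPM in LM1 (log2 fold change 2.42 ± 0.055, adjusted p = 7.34e-28). Krt18 was at 522, 507 and 494 CPM in LM3 and 226, 234 and 228 CPM in LM1 (log2 fold change 1.15 ± 0.033, adjusted p = 4.51e-25). The cultures of the lines did not overlap for these 3 genes. The keratin partner Krt8 was at 1571, 1545 and 1506 CPM in LM3 and 863, 881 and 879.8 CPM in LM1 (log2 fold change 0.82 ± 0.022, adjusted p = 1.06e-25), and Krt7 was higher as well (38.5 against 9.49 CPM, log2 fold change 2.02 ± 0.065, adjusted p = 2.00e-23). The epithelial transcription factor genes Grhl2 (1.68 against 0.244 CPM, log2 fold change 2.79 ± 0.43, adjusted p = 1.31e-06) and Elf3 (1.19 CPM against at most 3 counts in each LM1 library, at least 8.33-fold higher, adjusted p = 2.74e-07) were called higher from low levels. Krt7, Krt8, Krt18 and Grhl2 lie on chromosome 15, and outside chromosomes 6, 8 and 15 the list had 7 of 11 higher and 0 lower, beside 19.9% and 24.9%. Mesenchymal genes did not mirror this. Their list had 8 of 19 tested members called higher and 6 called lower in LM3 (median 0, or -0.0023 with genes at the floor set to their bounds), with the transcription factor genes Zeb1 (63.7 against 63.8 CPM, log2 fold change -0.0023 ± 0.042, adjusted p = 0.981) not called, Zeb2 lower (39.6 against 49.97 CPM, log2 fold change -0.33 ± 0.056, adjusted p = 6.29e-06) and Twist1 higher (119.7 against 95.1 CPM, log2 fold change 0.33 ± 0.053, adjusted p = 2.63e-06). Among genes of the mammary lineages, the luminal list had 6 of 9 tested members called higher and 1 called lower in LM3, and the basal list 6 of 12 tested members called higher and 0 called lower in LM3. Areg, the growth factor amphiregulin, was at 23.4, 23.3 and 23.6 CPM in LM3 and 8.44, 8.75 and 7.72 CPM in LM1 (log2 fold change 1.497 ± 0.076, adjusted p = 4.91e-18). Lcn2, lipocalin 2, was at 105, 96.4 and 91.5 CPM in LM3 and 51.7, 61.5 and 53.6 CPM in LM1 (log2 fold change 0.81 ± 0.053, adjusted p = 6.53e-15). Procr, a receptor that marks mammary stem cells, was at 103, 102 and 102 CPM in LM3 and 60.9, 67.6 and 65.4 CPM in LM1 (log2 fold change 0.66 ± 0.035, adjusted p = 1.61e-17). All 3 were higher in every LM3 culture. Gata3, the luminal transcription factor, went the other way (55.5 against 78.4 CPM, log2 fold change -0.50 ± 0.041, adjusted p = 1.83e-12).

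**Figure D3:**
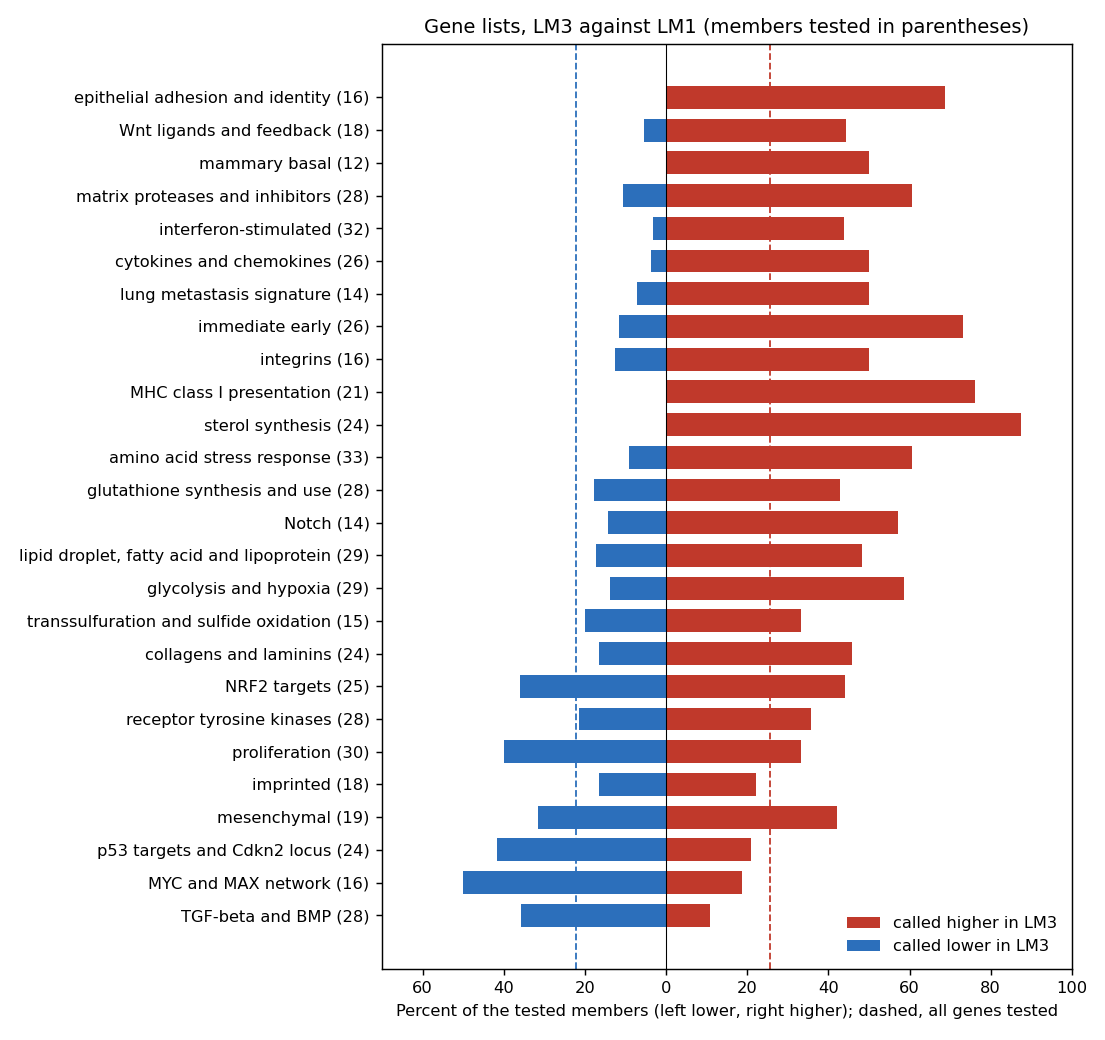
Share of tested members called higher (right, red) and lower (left, blue) in LM3 for the lists with at least 10 members tested, ordered by median log2 fold change, with dashed lines at 25.7% and 22.3% of all genes. The sterol synthesis, MHC class I, epithelial and mammary basal lists have no member called lower, and the TGF-beta and BMP list is at the bottom.

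Matrix genes moved apart by chain. The collagen and laminin list had 11 of 24 tested members called higher and 4 called lower in LM3 (median 0.04, or 0.08 with genes at the floor set to their bounds). Collagen VI chains were higher: Col6a1 was at 84.2, 80.6 and 84.0 CPM in LM3 and 11.8, 10.0 and 10.2 CPM in LM1 (log2 fold change 2.96 ± 0.074, adjusted p = 1.30e-26), and Col6a3 at 39.5, 38.9 and 40.5 CPM in LM3 and 6.13, 8.48 and 7.16 CPM in LM1 (log2 fold change 2.44 ± 0.084, adjusted p = 1.05e-22). Col3a1, a fibrillar collagen of connective tissue, was at 117, 106 and 109.9 CPM in LM3 and 11.9, 13.6 and 13.2 CPM in LM1 (log2 fold change 3.101 ± 0.067, adjusted p = 3.62e-27), from 0.474 ± 0.283 CPM in Myc310. Lama3, a chain of epithelial laminin 332, was at 6.46, 7.50 and 7.07 CPM in LM3 and 0.618, 0.857 and 0.468 CPM in LM1 (log2 fold change 3.42 ± 0.24, adjusted p = 4.46e-14), and its partner Lamb3 was higher too (4.64 against 0.373 CPM, log2 fold change 3.59 ± 0.28, adjusted p = 3.75e-13). Each of these 4 chains given by culture was higher in all LM3 cultures. Going the other way, Col8a1 was at 11.7, 9.21 and 10.1 CPM in LM3 and 28.4, 25.8 and 25.6 CPM in LM1 (log2 fold change -1.36 ± 0.084, adjusted p = 9.68e-16), and Col12a1 was lower as well (2.31 against 8.93 CPM, log2 fold change -1.94 ± 0.12, adjusted p = 2.28e-15). The fibroblast marker list had 4 of 7 tested members called higher, and its summed level was 122 to 133 CPM in LM3 against 15.6 to 17.9 CPM in LM1. Most of that sum was Col3a1. Pdgfra, Pdgfrb (0.975 against 0.296 CPM, log2 fold change 1.68 ± 0.38, adjusted p = 4.33e-04) and Fbln1 on chromosome 15 (4.37 against 0.384 CPM, log2 fold change 3.50 ± 0.21, adjusted p = 6.25e-16) were the other members called higher, and the defining markers Col1a1, Col1a2, Dcn and Lum had at most 7 counts in any of the 6 libraries. In these bulk samples more cells that express a gene and more RNA per cell cannot be told apart.

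Integrins, the receptors for matrix, had 8 of 16 tested members called higher and 2 called lower in LM3. Itgb3, a chain of the vitronectin receptor, was at 38.4, 36.2 and 37.9 CPM in LM3 and 8.44, 7.85 and 8.19 CPM in LM1 (log2 fold change 2.20 ± 0.075, adjusted p = 7.25e-23). Itgb7, a chain best known from lymphocytes, was at 237, 237 and 234 CPM in LM3 and 133, 137 and 143 CPM in LM1 (log2 fold change 0.78 ± 0.033, adjusted p = 2.65e-20), and Itga5 of the fibronectin receptor was also higher (357 against 208 CPM, log2 fold change 0.78 ± 0.039, adjusted p = 4.19e-18). Itgav (233 against 298 CPM, log2 fold change -0.36 ± 0.025, adjusted p = 2.46e-14) and Itgb5 (74.0 against 93.4 CPM, log2 fold change -0.33 ± 0.044, adjusted p = 7.74e-08) were lower. Integrin chains thus differed in both directions, and of those named only Itgb3 differed by over 2-fold. Itgb7 and Itga5 lie on chromosome 15, and outside chromosomes 6, 8 and 15 the list had 5 of 13 higher and 2 lower, beside 19.9% and 24.9%. Matrix proteases and their inhibitors had 17 of 28 tested members called higher and 3 called lower in LM3 (median 0.59, or 0.72 with genes at the floor set to their bounds), and outside chromosomes 6, 8 and 15 14 of 25 higher and 3 lower (median 0.38). Plat, the tissue-type plasminogen activator, was at 70.9, 70.8 and 74.8 CPM in LM3 and 14.7, 16.14 and 13.2 CPM in LM1 (log2 fold change 2.29 ± 0.057, adjusted p = 1.19e-26), and Serpine2, a serpin that inhibits such activators, at 169, 178 and 170.1 CPM in LM3 and 43.8, 48.9 and 46.8 CPM in LM1 (log2 fold change 1.89 ± 0.041, adjusted p = 1.82e-28). Mmp2, a gelatinase, was at 86.7, 85.9 and 84.0 CPM in LM3 and 36.5, 37.6 and 40.6 CPM in LM1 (log2 fold change 1.16 ± 0.048, adjusted p = 1.39e-20), with 0.830 ± 0.249 CPM in Myc310. For these 3 genes every LM3 culture lay above every LM1 culture. Mmp2 and Plat lie on chromosome 8, and each differed by more than that chromosome did.

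Cytokines and chemokines had 13 of 26 tested members called higher and 1 called lower in LM3 (median 0.56). Cxcl1, a neutrophil attractant, was at 23.9, 22.11 and 25.0 CPM in LM3 and 6.69, 6.09 and 4.16 CPM in LM1 (log2 fold change 2.07 ± 0.11, adjusted p = 1.23e-17). Spp1, the matrix cytokine osteopontin, was at 694, 662 and 681 CPM in LM3 and 335, 329.7 and 330.0 CPM in LM1 (log2 fold change 1.03 ± 0.027, adjusted p = 3.45e-26). Il18, an inflammasome product, was at 5.87, 6.43 and 5.65 CPM in LM3 and 2.57, 2.89 and 2.76 CPM in LM1 (log2 fold change 1.12 ± 0.15, adjusted p = 8.58e-08). All 3 lay higher in every LM3 culture. The macrophage growth factor gene Csf1 was the only member called lower (83.7 against 117 CPM, log2 fold change -0.48 ± 0.047, adjusted p = 1.32e-10). A list of genes linked to lung colonisation in breast cancer had 7 of 14 tested members called higher and 1 called lower in LM3. Angptl4 was at 5.20, 5.36 and 4.18 CPM in LM3 and 1.70, 1.35 and 1.87 CPM in LM1 (log2 fold change 1.59 ± 0.23, adjusted p = 5.77e-07), Ptgs2 of prostaglandin synthesis was higher (40.2 against 19.7 CPM, log2 fold change 1.03 ± 0.080, adjusted p = 4.55e-13), and Id1 and Fscn1 were not called.

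The TGF-beta and BMP list had 3 of 28 tested members called higher and 10 called lower in LM3 (median -0.13, or -0.18 with genes at the floor set to their bounds). Its BMP ligands went in opposite directions. Bmp6 (chr13:38345107-38500302, plus strand) was at 0.296, 0.278 and 0.367 CPM in LM3 and 14.98, 15.6 and 13.1 CPM in LM1 (log2 fold change -5.52 ± 0.20, adjusted p = 7.00e-22), while Bmp7 (chr2:172868012-172940321, minus strand) was at 39.1, 38.2 and 38.8 CPM in LM3 and 2.57, 2.34 and 2.67 CPM in LM1 (log2 fold change 3.94 ± 0.10, adjusted p = 4.38e-26). Myc310 had 0.471 ± 0.152 CPM of Bmp6 and 16.4 ± 0.492 CPM of Bmp7, so that Bmp6 was higher than the parent in LM1 and not called in LM3 (adjusted p = 3.64e-21 and 0.253), while Bmp7 was higher than the parent in LM3 and lower in LM1 (adjusted p = 5.10e-16 and 7.13e-20). Among genes that the pathway switches on, Smad6 (3.96 against 7.21 CPM, log2 fold change -0.86 ± 0.16, adjusted p = 4.17e-05), Smad7 (19.02 against 27.5 CPM, log2 fold change -0.53 ± 0.092, adjusted p = 1.09e-05) and Id2 (13.1 against 18.9 CPM, log2 fold change -0.53 ± 0.10, adjusted p = 3.04e-05) were lower in LM3. Id1 was not called (adjusted p = 0.521), and the call of Id3 (97.1 against 108 CPM, log2 fold change -0.15 ± 0.063, adjusted p = 0.0427) was lost whichever culture was left out (adjusted p = 0.0564 to 0.172). The ligand gene Tgfb1 was higher (97.6 against 65.9 CPM, log2 fold change 0.57 ± 0.040, adjusted p = 5.09e-14). These differences were small beside those of Bmp6 and Bmp7. Wnt genes had 8 of 18 tested members called higher and 1 called lower in LM3. Tcf7, a transcription factor and target of the pathway, was at 9.80, 10.1 and 9.73 CPM in LM3 and 1.80, 1.49 and 1.404 CPM in LM1 (log2 fold change 2.66 ± 0.17, adjusted p = 3.55e-15), and Wnt5b at 4.18, 5.56 and 6.24 CPM in LM3 and 1.29, 0.992 and 1.08 CPM in LM1 (log2 fold change 2.25 ± 0.21, adjusted p = 5.29e-11). Neither gene overlapped between the lines. Wnt7b was higher as well (49.3 against 18.6 CPM, log2 fold change 1.402 ± 0.066, adjusted p = 6.07e-19), and the feedback gene Notum was not called. Notch pathway genes had 8 of 14 tested members called higher and 2 called lower in LM3. The receptor gene Notch1 was at 37.8, 44.5 and 40.5 CPM in LM3 and 18.1, 23.04 and 18.6 CPM in LM1 (log2 fold change 1.04 ± 0.077, adjusted p = 1.30e-13) and the ligand gene Jag1 at 28.0, 28.9 and 27.6 CPM in LM3 and 16.6, 17.8 and 17.0 CPM in LM1 (log2 fold change 0.72 ± 0.079, adjusted p = 1.90e-09), whereas the target gene Hes1 was at -0.10 ± 0.14 (adjusted p = 0.599).

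Receptor tyrosine kinases had 10 of 28 tested members called higher and 6 called lower in LM3, near the 25.7% and 22.3% of all genes, and outside chromosomes 6, 8 and 15 7 of 24 higher and 6 lower. Egfr, the receptor for EGF, which the culture medium contained, was at 5.70, 5.16 and 5.74 CPM in LM3 and 0.257, 0.135 and 0.187 CPM in LM1 (log2 fold change 4.82 ± 0.24, adjusted p = 3.09e-18). Pdgfra was at 8.53, 10.8 and 8.17 CPM in LM3 and 2.47, 2.89 and 1.404 CPM in LM1 (log2 fold change 2.02 ± 0.15, adjusted p = 2.54e-13), and Flt1 at 38.3, 39.4 and 40.8 CPM in LM3 and 19.3, 18.2 and 19.9 CPM in LM1 (log2 fold change 1.04 ± 0.051, adjusted p = 2.25e-18). All 3 lay higher in every LM3 culture, from levels in LM1 that were lowest for Egfr. Erbb2 (42.2 against 50.9 CPM, log2 fold change -0.27 ± 0.045, adjusted p = 5.51e-06) and Axl (543 against 630.0 CPM, log2 fold change -0.21 ± 0.021, adjusted p = 1.53e-10) were lower, and Met was not called (251 against 247 CPM, log2 fold change 0.026 ± 0.031, adjusted p = 0.520).

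Genes of cysteine and glutathione metabolism, which the study examined, include members called in each direction. Cbs, the first enzyme of transsulfuration, was at 1.86, 1.87 and 2.02 CPM in LM3 and 0.0515, 0.135 and 0.234 CPM in LM1 (log2 fold change 3.70 ± 0.44, adjusted p = 1.12e-08), at 44 to 47 counts in LM3 and 1 to 5 counts in LM1. Cth, the next enzyme, was at 18.5, 21.2 and 18.2 CPM in LM3 and 24.7, 25.2 and 24.0 CPM in LM1 (log2 fold change -0.35 ± 0.074, adjusted p = 1.76e-04). Transsulfuration and sulfide oxidation genes as a list had 5 of 15 tested members called higher and 3 called lower in LM3, near the 25.7% and 22.3% of all genes, and 2 of 11 higher and 3 lower outside chromosomes 6, 8 and 15, near the 19.9% and 24.9% there. Among them were Tst at 24.5, 26.9 and 24.7 CPM in LM3 and 12.5, 14.2 and 12.9 CPM in LM1 (log2 fold change 0.94 ± 0.083, adjusted p = 1.09e-11) and Suox at 57.3, 57.3 and 56.4 CPM in LM3 and 94.0, 97.4 and 95.0 CPM in LM1 (log2 fold change -0.74 ± 0.038, adjusted p = 9.31e-18). Cbs was thus higher in LM3 and Cth lower. The subunits of glutamate-cysteine ligase were lower: Gclc was at 73.6, 67.2 and 71.2 CPM in LM3 and 84.9, 86.8 and 88.2 CPM in LM1 (log2 fold change -0.29 ± 0.036, adjusted p = 1.83e-08) and Gclm at 91.7, 89.6 and 91.2 CPM in LM3 and 119, 113 and 114 CPM in LM1 (log2 fold change -0.34 ± 0.036, adjusted p = 6.24e-10). Slc7a11, the cystine transporter, was at 11.7, 11.0 and 9.28 CPM in LM3 and 10.7, 9.97 and 10.6 CPM in LM1 (log2 fold change 0.037 ± 0.089, adjusted p = 0.771) and was not called. Gsr, glutathione reductase, was at 217, 209.8 and 217 CPM in LM3 and 167, 177 and 169 CPM in LM1 (log2 fold change 0.33 ± 0.028, adjusted p = 4.51e-12) and lies on chromosome 8. The cultures of the lines overlapped for Slc7a11 and not for the ligase subunits or Gsr. Gpx3 (log2 fold change 0.65 ± 0.41, adjusted p = 0.202) was not called, and Gss (log2 fold change -0.15 ± 0.050, adjusted p = 0.0117) was called although its cultures overlapped, a call lost without LM1 replicate 2 or LM3 replicate 2 or 3 (adjusted p = 0.0613 to 0.107). Chac1, a glutathione-degrading enzyme, was at 1.86, 2.34 and 1.88 CPM in LM3 and 1.60, 1.26 and 1.26 CPM in LM1 (log2 fold change 0.57 ± 0.22, adjusted p = 0.0354), and its call was lost without LM1 replicate 2 or 3 or LM3 replicate 2 (adjusted p = 0.102 to 0.150). Neither call held under every choice of cultures. The glutathione list had 12 of 28 tested members called higher and 5 called lower in LM3, with the largest differences in Oplah, 5-oxoprolinase, at 8.07, 7.54 and 8.45 CPM in LM3 and 1.60, 1.94 and 1.17 CPM in LM1 (log2 fold change 2.35 ± 0.15, adjusted p = 4.22e-15) and Mgst1, a microsomal transferase, at 15.5, 14.96 and 15.2 CPM in LM3 and 3.86, 3.43 and 3.18 CPM in LM1 (log2 fold change 2.13 ± 0.12, adjusted p = 8.92e-17). Targets of NRF2, the regulator of the antioxidant response, were split, with 11 of 25 tested members called higher and 9 called lower in LM3: Osgin1 was at 18.96, 20.2 and 19.102 CPM in LM3 and 8.24, 8.07 and 7.02 CPM in LM1 (log2 fold change 1.32 ± 0.090, adjusted p = 1.64e-14), whereas Txnrd1 (277 against 294 CPM, log2 fold change -0.085 ± 0.025, adjusted p = 0.00555) and Srxn1 (50.2 against 63.2 CPM, log2 fold change -0.33 ± 0.039, adjusted p = 6.21e-09) were lower.

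Most stress and immediate early genes tested were higher in LM3. The amino acid stress list had 20 of 33 tested members called higher and 3 called lower in LM3 (median 0.25). Atf4, its transcription factor, was at 226, 213 and 219 CPM in LM3 and 135, 142 and 140.0 CPM in LM1 (log2 fold change 0.66 ± 0.030, adjusted p = 2.75e-19). Nupr1 was at 42.8, 38.5 and 37.6 CPM in LM3 and 19.9, 21.6 and 23.9 CPM in LM1 (log2 fold change 0.86 ± 0.075, adjusted p = 9.29e-12). Targets of Atf4 did not all follow: Asns was lower (154 against 173 CPM, log2 fold change -0.17 ± 0.031, adjusted p = 1.95e-05), and Psat1 (632 against 615 CPM, log2 fold change 0.038 ± 0.022, adjusted p = 0.169) and Sesn2 (46.4 against 46.4 CPM, log2 fold change -0.0014 ± 0.047, adjusted p = 0.994) were not called. Atf4 lies on chromosome 15, and outside chromosomes 6, 8 and 15 the list had 13 of 25 higher and 2 lower. Immediate early genes, which respond to serum and to handling within minutes, had 19 of 26 tested members called higher and 3 called lower in LM3 (median 0.52). Ier3 was at 79.6, 81.9 and 84.0 CPM in LM3 and 34.5, 33.7 and 34.9 CPM in LM1 (log2 fold change 1.25 ± 0.063, adjusted p = 4.93e-18). Junb, on chromosome 8, was at 97.4, 97.4 and 97.4 CPM in LM3 and 56.0, 54.4 and 55.9 CPM in LM1 (log2 fold change 0.81 ± 0.053, adjusted p = 5.66e-15), and Klf2, also on chromosome 8, at 21.1, 19.6 and 20.5 CPM in LM3 and 10.1, 11.3 and 9.78 CPM in LM1 (log2 fold change 0.97 ± 0.11, adjusted p = 2.99e-09). Outside the 3 chromosomes the list had 12 of 18 higher and 3 lower. Ccn1 (113 against 153 CPM, log2 fold change -0.43 ± 0.062, adjusted p = 4.18e-07) and Ccn2 (169.9 against 199 CPM, log2 fold change -0.23 ± 0.086, adjusted p = 0.0269), which encode matricellular proteins, had values below those of LM1. The call of Ccn2 was lost without LM1 replicate 2 or 3 or LM3 replicate 1 or 3 (adjusted p = 0.0633 to 0.0978).

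Cell cycle genes went both ways. The proliferation list had 10 of 30 tested members called higher and 12 called lower in LM3, and 6 of 25 higher and 12 lower outside chromosomes 6, 8 and 15. The replication licensing gene Mcm2 was at 340.2, 335 and 343 CPM in LM3 and 261, 257 and 262 CPM in LM1 (log2 fold change 0.38 ± 0.023, adjusted p = 5.22e-16), and Mcm5 was higher too (382 against 299 CPM, log2 fold change 0.35 ± 0.023, adjusted p = 2.92e-15). The mitotic cyclin gene Ccnb2 was at 95.2, 102 and 99.7 CPM in LM3 and 123, 132 and 132 CPM in LM1 (log2 fold change -0.38 ± 0.034, adjusted p = 2.18e-11), and Mki67 was lower as well (541 against 659 CPM, log2 fold change -0.28 ± 0.042, adjusted p = 7.42e-07). Each of these differed by less than 2-fold. The list of p53 targets and the Cdkn2 locus, which also holds Trp53 and Mtap, had 5 of 24 tested members called higher and 10 called lower in LM3: Ccng1 (292 against 398 CPM, log2 fold change -0.44 ± 0.032, adjusted p = 5.24e-14) and Zmat3 (78.0 against 104 CPM, log2 fold change -0.42 ± 0.046, adjusted p = 2.45e-09) were lower, whereas Cdkn1a, the cell cycle inhibitor p21, was at 168, 171 and 168 CPM in LM3 and 104, 105 and 100.3 CPM in LM1 (log2 fold change 0.71 ± 0.034, adjusted p = 1.16e-18). Cdkn2a and Cdkn2b had no count in either line. Glycolysis and hypoxia genes had 17 of 29 tested members called higher and 4 called lower in LM3, and Ndrg1, a hypoxia-induced gene on chromosome 15, was at 48.4, 46.0 and 46.9 CPM in LM3 and 16.8, 14.4 and 12.5 CPM in LM1 (log2 fold change 1.70 ± 0.10, adjusted p = 1.46e-16). Pfkfb4, which sets the flux through phosphofructokinase, was at 14.95, 15.8 and 15.7 CPM in LM3 and 5.35, 6.72 and 6.36 CPM in LM1 (log2 fold change 1.33 ± 0.093, adjusted p = 3.12e-14), and Slc2a3, a glucose transporter gene, was lower (3.52 against 8.61 CPM, log2 fold change -1.29 ± 0.14, adjusted p = 1.02e-09).

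Myc, the oncogene of the model, was at 1028, 1029 and 1040.3 CPM in LM3 and 1158, 1156 and 1173 CPM in LM1 (log2 fold change -0.17 ± 0.025, adjusted p = 6.44e-07), and lower in both than in Myc310 (adjusted p = 4.87e-15 and 1.27e-08). Counts on Myc cannot be divided here between the transgene and the mouse gene, which lies on chromosome 15. It was lower in LM3, although the chromosome was higher. The MYC and MAX network list had 3 of 16 tested members called higher and 8 called lower in LM3, with Mga, a repressor of the network, at 63.0, 64.9 and 66.4 CPM in LM3 and 91.1, 96.0 and 95.0 CPM in LM1 (log2 fold change -0.54 ± 0.043, adjusted p = 1.08e-12) and Mxd1, another, at 3.34, 4.33 and 4.68 CPM in LM3 and 2.93, 2.84 and 3.18 CPM in LM1 (log2 fold change 0.46 ± 0.16, adjusted p = 0.0177). The call of Mxd1 was lost without LM1 replicate 2 or LM3 replicate 2 or 3 (adjusted p = 0.0593 to 0.0963). Imprinted genes had 4 of 18 tested members called higher and 3 called lower in LM3, below the 25.7% and 22.3% of all genes, and 1 of 12 higher and 1 lower outside chromosomes 6, 8 and 15. Germline genes had 2 of 6 tested members called higher and 2 called lower in LM3. Rhox5, a germline gene of the X chromosome, was at 11.8, 11.1 and 14.4 CPM in LM3 and 4.02, 4.55 and 4.40 CPM in LM1 (log2 fold change 1.52 ± 0.10, adjusted p = 1.30e-14). Impact was at 38.8, 37.3 and 37.5 CPM in LM3 and 58.4, 58.4 and 60.1 CPM in LM1 (log2 fold change -0.64 ± 0.045, adjusted p = 3.72e-14).

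Marker lists of leukocytes, endothelium, alveolar epithelium, and red cells and platelets were measured because the lines were isolated from lung. Leukocyte markers summed to 13.6 to 16.0 CPM in LM3 and 9.63 to 10.2 CPM in LM1, nearly all from Cd68, with Ptprc and Lyz2 at 0 counts. Alveolar markers summed to 5.28 to 6.88 CPM in LM3 and 0.631 to 1.08 CPM in LM1, with Sftpb, Sftpc and Scgb1a1 at 0 counts. The difference was in Hopx, a homeodomain gene, at 5.87, 4.48 and 5.14 CPM in LM3 and 0.154, 0.0902 and 0.0468 CPM in LM1, where it was at the floor (at least 36.0-fold higher). Endothelial markers summed to 22.5 to 25.9 CPM in LM3 and 185 to 188 CPM in LM1, nearly all endoglin in LM1 and endoglin and Egfl7 in LM3. Erythroid and platelet markers summed to 2.07 to 2.79 and 1.13 to 2.20 CPM, and these ranges overlapped. Of the members tested, 1 of 2 leukocyte, 1 of 3 alveolar and 1 of 2 erythroid and platelet markers were called higher and none lower, and 1 of 4 endothelial markers was called in each direction. Xist, the RNA of the inactive X, was at 0.0845 to 0.551 CPM in LM3, 0.889 to 1.26 CPM in LM1 and 81.6 ± 2.42 CPM in Myc310, and the Y-linked genes Kdm5d and Uty had no count.

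Whole chromosomes differed between the lines. The level of a chromosome is the median, over its tested genes, of the log2 CPM of a library relative to the mean of the 6 libraries. Chromosome 15 had levels of 0.246, 0.242 and 0.246 in the LM3 cultures and -0.240, -0.244 and -0.238 in the LM1 cultures, a difference of 0.49. The shift ran through the whole set: 444 of 554 genes tested on it were called higher and 6 lower, and 91.9% of its log2 fold changes were above 0. Chromosome 8 had levels of 0.121, 0.122 and 0.121 in LM3 and -0.118, -0.116 and -0.112 in LM1, a difference of 0.24 (1.18-fold), with 451 of 765 genes called higher and 22 lower. Chromosome 6 differed by 0.15, with 310 of 690 genes called higher and 105 lower. The level of every other chromosome differed by at most 0.0643 in size. The LM3 and LM1 cultures did not overlap for 18 chromosomes, these 3 included and all but 11 and 19, each with an exact two-sided permutation p = 0.1, the smallest 3 against 3 libraries allow, so that the 3 stood out by size and not by this test. Outside chromosomes 6, 8 and 15 there were 2344 genes called higher and 2927 called lower among 11761, so the share of calls that were higher fell from 53.6% over all genes to 44.5%.

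**Figure D4:**
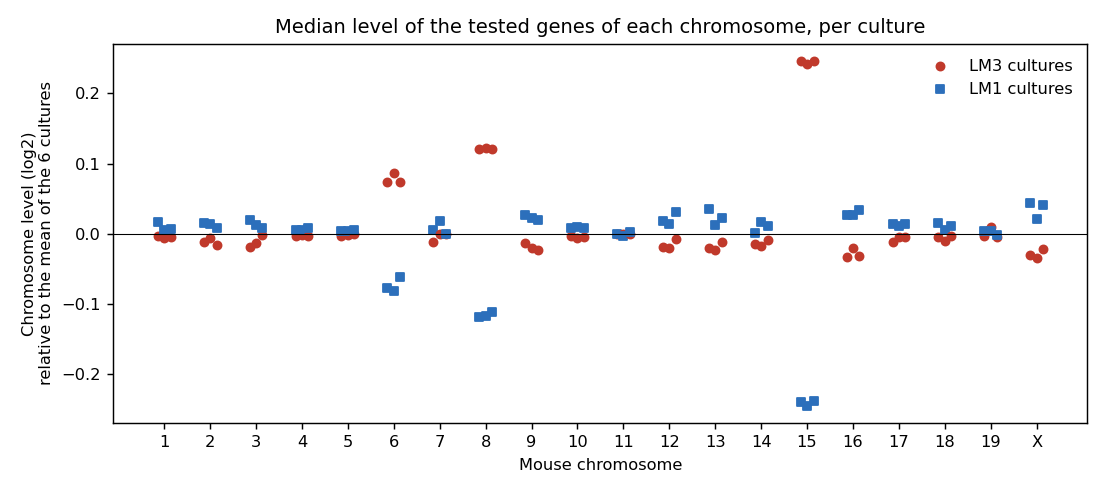
Level of each chromosome (log2, relative to the mean of the 6 cultures), 1 point per culture. Chromosomes 15, 8 and 6 are higher in LM3 by 0.49, 0.24 and 0.15, and the others differ by at most 0.0643 in size.

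Relative to Myc310, chromosomes 8 and 15 were higher in LM3 and close to the parent in LM1. The median log2 difference from Myc310 over chromosome 15 was 0.43 in LM3 and -0.050 in LM1. It was 0.27 in LM2, 0.40 in LM3-LM, -0.086 in LM1-LM and -0.042 in LM2-LM. In MYAZ12.3i, MYAZ16.1e and MYAZ6.6g, lines not derived from Myc310, it was 0.26, 0.26 and 0.38. A higher chromosome 15 than in Myc310 was thus not particular to LM3. Over chromosome 8 it was 0.23 in LM3 and between -0.0099 and 0.026 in LM1, LM2 and the 3 LM-LM lines. Both shifts extended from end to end: in windows of 10 Mb, all 11 windows of chromosome 15 (0.25 to 0.62) and all 13 of chromosome 8 (0.14 to 0.29) had a median log2 fold change above 0. Lrp12, the gene on chromosome 15 with the largest difference among well-expressed ones, was at 20.6, 19.7 and 20.0 CPM in LM3 and 3.24, 3.79 and 3.46 CPM in LM1 (log2 fold change 2.52 ± 0.10, adjusted p = 1.20e-20).

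Chromosome 6 was divided. Its first 40 Mb were lower in LM3, with a median log2 fold change of -0.33 and 84 of 135 genes called lower. From 40 to 120 Mb it was higher by 0.24, with 207 of 375 genes called higher, and from 120 Mb to the end by 0.21, with 96 of 180 called higher. The sign changed between neighbouring windows, from -0.43 over 30 to 40 Mb to 0.46 over 40 to 50 Mb. On either side of this change LM1 lay farther from the parent: against Myc310 these 2 windows were at 0.39 and -0.42 in LM1 and at -0.13 and -0.0047 in LM3. Over the first 40 Mb as a whole it was LM3 that lay farther from Myc310, at -0.17 against 0.13 in LM1, and from 120 Mb to the end LM3 was at 0.090 and LM1 at -0.10. The stretch from 40 to 120 Mb was at -0.36 in LM1, -0.38 in LM1-LM and -0.35 in LM2-LM, against -0.13 in LM3, -0.036 in LM2 and 0.029 in LM3-LM. DNA was not analysed here, so chromosome number and a change in the expression of many neighbouring genes cannot be told apart.

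**Figure D5:**
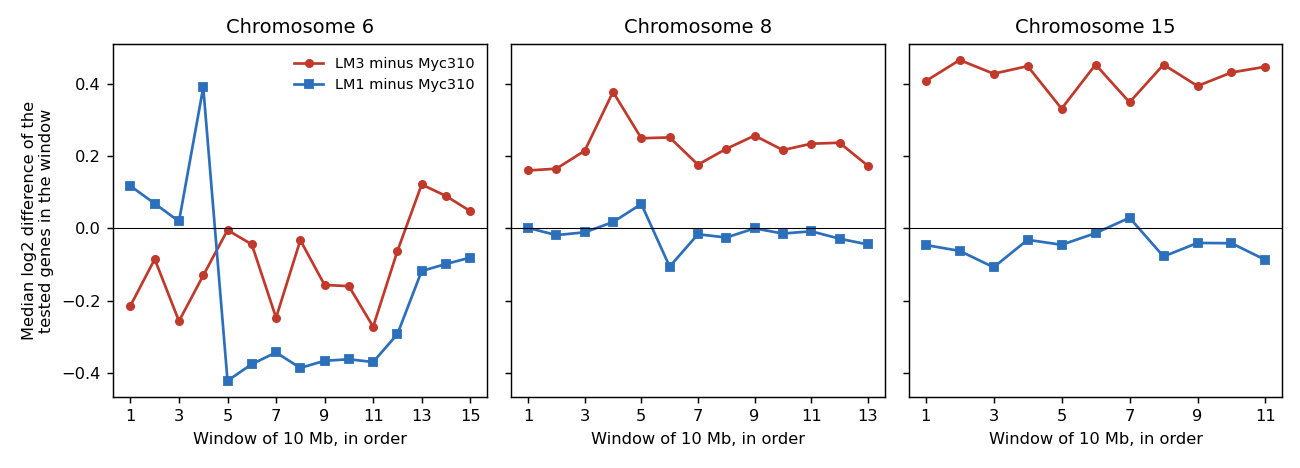
Median log2 difference from Myc310 of the tested genes in successive windows of 10 Mb along chromosomes 6, 8 and 15 (LM3 circles, LM1 squares). LM3 lies above 0 throughout chromosomes 8 and 15, and LM1 drops from 0.39 to -0.42 between 30 to 40 Mb and 40 to 50 Mb on chromosome 6.

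Elsewhere, 5 of 224 windows had a median log2 fold change beyond 0.2 in size, of which 3 held under 20 genes. The others were a window on chromosome 5 from 70 to 80 Mb with 26 of 38 genes called higher and none lower (median 0.20), and one on the X chromosome from 140 to 150 Mb, which holds Col4a5. The latter had a median of 0.25, with 14 of 23 genes called higher and 6 lower, and lay 0.55 above Myc310 in LM3 and 0.077 below it in LM1. No run of at least 3 neighbouring protein-coding genes was at the floor in one line and at 1 CPM or more in the other.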

How the data were processed

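RNA was sequenced by the study after polyA selection and directional library preparation. Used here were 30 control-medium libraries, 10 lines with 3 cultures each, and the 3 control cultures of MYAZ12_3i_NDI1 were left out. The authors deposited a table of gene counts, whole numbers per gene and library. The submitters' processing notes name STAR, RSEM, DESeq2 1.38.3, R 4.2.2 and GRCm38; the annotation release and the use of strand in counting are not given in the sources used here. No column of an unused sample was read (0 columns). Gene positions came from GENCODE on GRCm38, and 28444 of 28454 genes matched.

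Counts as deposited were filtered by expression and scaled by TMM, and edgeR 4.0.16 (quasi-likelihood test, R 4.3.3) was fitted over the 30 libraries with line as the only factor, so that all lines share 1 estimate of the spread. P-values were adjusted by Benjamini and Hochberg over all 13795 genes. Total counts, 19521444 to 25539504 in the 6 libraries, set the precision. No pair of cultures was 1 library deposited repeatedly (chi-square per gene 2.26 to 3.33).

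The members and lists were chosen with earlier results of these data known. Named were the 12 largest called changes in each direction among protein-coding genes of mean log2 CPM 3 or more, the 4 most abundant genes at the floor in one line, the 2 largest called changes in each list at mean log2 CPM 1 or more, the genes of the study and genes of shifted chromosomes. Some genes that the rule selects are not reported here. Other genes were named after their values were seen. List names were matched to current symbols, or to older ones where a name is no current symbol. On simulated data with 200 genes changed 2-fold between LM3 and LM1, 158 were called, 195 had the right direction, and 9 unchanged genes of 13652 tested were called. Alternatives were DESeq2 1.42.0, other scalings, filters, libraries, a replicate block and leaving out each culture.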

Additional observations from a re-analysis of the deposited data

How the results depend on the processing

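The 6627 genes called between LM3 and LM1 became 6524 with DESeq2, 6670 with RLE scaling, 6705 with upper-quartile scaling, 6539 with the 6 libraries alone and 5975 to 6033 when 1 culture was left out. With a filter of 10 counts in each of the 6 libraries, which removes genes near 0 in one line, 515 genes were called past 2-fold, against 1188, and leaving out 1 culture gave 1156 to 1170. Replicate numbers did not pair the cultures (correlations of deviations 0.0205, 0.0142 and 0.0357), and with a replicate block 6605 genes were called, 1174 of them past 2-fold. Without the genes of chromosomes 6, 8 and 15, an alternative chosen after seeing the data, 5271 genes were called and 962 past 2-fold. The difference of chromosome 15 was 0.48 with RLE, 0.47 with upper-quartile scaling, 0.47 over genes of mean log2 CPM 3 or more, 0.49 over protein-coding genes and 0.49 with a prior count of 0.5 (0.48 to 0.49 with 1 culture left out). That of chromosome 8 was 0.23, 0.23, 0.22, 0.25 and 0.24 (0.23 to 0.24), and that of chromosome 6 was 0.14 with upper-quartile scaling, 0.14 over the better expressed genes and 0.16 over protein-coding genes (0.15 to 0.16). No gene selected for naming and called in LM3 against LM1, and none of these chromosomes, changed direction. Of the list counts under the alternatives, 28 moved and 962 did not, and 393 list medians did not move while the rest did. Without the genes of chromosomes 6, 8 and 15 the medians of proliferation genes (0.012 to -0.076) and NRF2 targets (0.034 to -0.0045) changed sign, as did those of NRF2 targets without LM3 replicate 1 (-0.0091), endothelial markers without LM1 replicate 2 (-0.37 to 0.049) and p53 targets with the filter of 10 counts (-0.0055 to 0.0039), and the share of calls that were higher went from 53.6% to 44.5%. With the filter of 10 counts some short lists had no gene left and gave no median. Of the results for single genes selected for naming under the alternatives, 2336 kept their side of the threshold, 24 lost the call and 8 gained one. Depth limits genes near the floor of 3 counts, whose fold changes are bounds.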

Other observations

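Promoters of the genes past 2-fold between LM3 and LM1 had a lower median of CG dinucleotides than those of all protein-coding genes tested. In the 300-base windows from RefSeq (GRCm38.p6), the median was 21 CG over 9600 protein-coding genes tested, 13 over the 669 called at over 2-fold higher in LM3 and 16 over the 99 called at over 2-fold lower. Most genes past 2-fold had low counts, and the groups were not matched for expression. This is a description of windows and carries no test, and it was not examined whether it is particular to these lines.

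Genes at the floor in LM1 and counted in LM3 differed in their level in the parent. Vldlr, the very low density lipoprotein receptor, was at 2.32, 2.38 and 2.39 CPM in LM3, at least 16.5-fold above the LM1 floor, and at 14.3 ± 0.465 CPM in Myc310 (SD, n = 3). Gdf15, a stress-induced cytokine, was at 0.549, 0.476 and 0.551 CPM in LM3, at least 3.66-fold above the floor, and had no count in LM1 or Myc310. Both were named after their values were seen.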
